A study of Rattus norvegicus with 84 samples.

Results

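The shell and the core of the nucleus accumbens were compared in rats of the HC_Sal condition, the saline group of the study's HC setting. The comparison took the libraries whose titles give Shell and HC_Sal (7) and those whose titles give Core and HC_Sal (7), 14 of the 84 libraries of the series. All rats were wild-type Long-Evans, an outbred strain, and none of these 14 libraries came from a cocaine group. Sal stands for saline, and HC commonly stands for home cage in this field, which the labels do not state. The other 70 libraries hold the same subregions in 5 further conditions (HC_Coc, Ext_Sal, Ext_Coc, Ctx_Sal and Ctx_Coc), where Coc stands for cocaine and Ext for extinction, and were used to repeat the contrast. The rats' age is not in the labels. Nor is it stated whether the libraries of a group are from different rats, so the tests speak only of the spread among these libraries, which may be technical.

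The nucleus accumbens is the ventral part of the striatum, and most of its neurons are GABAergic projection neurons that carry either D1-type or D2-type dopamine receptors. The shell is its medial and ventral rim and connects with the hypothalamus and the extended amygdala, while the core surrounds the anterior commissure and resembles the dorsal striatum in its connections. The subregions are classically told apart by staining for calbindin, which is denser in the core, and by peptides and receptors that are denser in the shell, among them neurotensin and the dopamine D3 receptor.

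Expression was measured by total RNA sequencing, as raw counts per gene. Depth ran from 14.8 to 18.4 M (mega) counts in Shell libraries and from 14.1 to 22.5 M in Core libraries. Levels of single genes below are CPM, counts relative to the scaled library total, unless given as before scaling. Summed levels over several genes are CPM before scaling. Fold changes are log2 of Shell over Core with their standard errors (SE). The tissue label was checked on genes of striatal projection neurons: Drd1, Drd2, Ppp1r1b and Adora2a had counts in all 14 libraries, with medians of 74.6 CPM in Shell and 59.7 CPM in Core for Drd1 before scaling. Receptor genes of smell and pheromone sensing, normally off in brain tissue, served as a measure of background counts. Their summed level was 9.81 ± 0.347 log2 CPM in Shell and 9.64 ± 0.960 log2 CPM in Core (SD, n = 7 each), and the means did not differ beyond the spread (two-sided exact permutation test, p = 0.6917 over 3432 assignments). Core 15-F (7.91) and Core 1-11 (8.72) lay below all Shell libraries, whose lowest was 9.18. Core libraries carry the series numbers 1, 2 and F and Shell libraries 3, 4 and F, so outside the F series the subregion and the series number cannot be told apart.

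Of 28451 genes tested, 171 were higher in Shell (0.601% of those tested) and 251 were lower (0.882%) at an adjusted p below 0.05. The decreases were the larger changes: 80 of the lower genes differed by more than 2-fold, against 9 of the higher genes. Shell and Core libraries did not overlap at all for 111 of the 171 higher and 210 of the 251 lower genes. These genes were selected for differing between the same libraries. Over all 28451 genes tested, called or not, the groups did not overlap for 152 with Shell above Core (0.534%) and for 277 with Shell below Core (0.974%). The lower set was led by genes of myelin. Among others, the higher set held peptides, receptors, channels and cell-guidance genes of neurons, some astrocyte genes and 25 genes with only a LOC identifier. Median gene length, which can include introns, was 51777 bases in the higher set, 24558 in the lower and 15192 over all tested. The part of length in the calls was not tested. Title numbers were used to pair Shell with Core libraries, a pairing that the labels do not explain and the data do not settle, and with these pairs as a block 67 genes were higher and 156 lower. Without Core 1-11 and 15-F, the libraries of lowest background, 3175 genes were higher and 2576 lower. Neurod6, a gene of cortical excitatory neurons, ran only from 0.35 to 3.54 CPM before scaling and was highest in Shell 3-11, Shell 4-10 and Core 2-10. By the summed list of cortical genes, also before scaling, Core 7-F (299.5 CPM) and Core 2-11 (288 CPM) stood above Core 2-10 (270 CPM). The sums were not computed after scaling, where this order may not hold. Without the 3 libraries of highest Neurod6, 5 genes were higher and 2 lower. In that fit, which has 11 libraries, the median log2 fold change of the myelin list was -1.65, against -1.66 with all 14 libraries, and that of the cholinergic list was 0.54 in both. All 422 called genes had the same direction in each of these fits. The fits reuse the libraries by which the 422 were selected, so this is not independent support. Leaving out 1 library at a time gave totals from 236 called genes (without Shell 8-F) to 685 (without Core 7-F).

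Sequence is shown first for 4 genes at the 2 ends of the comparison: Mobp, Opalin and Mag, which stand among the 12 largest decreases and belong to myelin, and Nts, the called peptide gene with the largest increase. Each run below is the 250 bases before the annotated transcription start, 5′ to 3′ on the gene's strand, from RefSeq promoter sequences of the rat build GRCr8. In Mobp, Opalin and Mag the capitals mark ACAAAG or its reverse complement CTTTGT, letters of the kind bound by SOX factors, and in Nts they mark TGANTCA, the AP-1 letters, which read the same on both strands. These motifs can share no more than 1 end base, and they were chosen with the genes' changes known.
Mobp (chr8:128746982-128747231, plus strand): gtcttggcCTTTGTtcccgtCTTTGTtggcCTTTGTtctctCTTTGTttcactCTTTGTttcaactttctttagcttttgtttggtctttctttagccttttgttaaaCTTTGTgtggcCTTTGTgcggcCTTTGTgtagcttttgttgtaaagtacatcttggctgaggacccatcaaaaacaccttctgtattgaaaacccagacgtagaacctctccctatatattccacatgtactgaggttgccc
Opalin (chr1:249858191-249858440, minus strand): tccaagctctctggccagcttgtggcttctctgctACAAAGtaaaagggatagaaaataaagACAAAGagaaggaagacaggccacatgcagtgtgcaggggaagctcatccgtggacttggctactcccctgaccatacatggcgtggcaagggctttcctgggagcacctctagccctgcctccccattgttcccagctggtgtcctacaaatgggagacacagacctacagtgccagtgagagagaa
Mag (chr1:95291045-95291294, minus strand): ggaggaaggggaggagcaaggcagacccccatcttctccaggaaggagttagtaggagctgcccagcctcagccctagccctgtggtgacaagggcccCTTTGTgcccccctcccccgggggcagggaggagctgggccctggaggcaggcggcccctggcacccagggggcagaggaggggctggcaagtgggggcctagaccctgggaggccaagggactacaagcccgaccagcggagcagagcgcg
Nts (chr7:39460889-39461138, minus strand): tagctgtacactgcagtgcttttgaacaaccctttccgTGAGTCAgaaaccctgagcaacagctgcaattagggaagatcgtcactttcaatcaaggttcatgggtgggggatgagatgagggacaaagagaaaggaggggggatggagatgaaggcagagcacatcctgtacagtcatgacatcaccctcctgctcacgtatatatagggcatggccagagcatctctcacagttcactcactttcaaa

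The Mobp run held 8 copies of ACAAAG or CTTTGT, Opalin held 2, and Mag and Nts held 1 each. Of 33465 rat promoter windows of this length, 16.3% held at least 1 copy, 1.84% at least 2, and 2 windows (0.00598%) held 8 or more. TGANTCA stood once in the Nts run and in 6.34% of all windows. Of the 24 genes with the largest changes, 18 had a sequence, with 20 windows among them: 6 of these held the ACAAAG letters and 3 held TGANTCA. A match is a description of the letters and not evidence of binding.

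Myelin is the lipid sheath that oligodendrocytes wrap around axons, and its genes were lower in Shell throughout. All 20 of 20 tested members of the myelin and mature oligodendrocyte list fell, with a median log2 fold change of -1.66, against -0.02 over all genes. Their summed level before scaling was 1266 to 1520 CPM in Shell (median 1460) and 3402 to 7183 CPM in Core (median 3938). In bulk samples fewer oligodendrocytes and less RNA per oligodendrocyte cannot be told apart. With the replicate block 19 of the 20 were called lower, and Olig1 was not (adjusted p = 0.0558). Counts for this list and those below stand against 0.601% of all genes called higher and 0.882% called lower. At those shares a short list would mostly give 0 calls in either direction.

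Mobp, a small basic protein of compact myelin, had 224, 266 and 347 CPM in Shell (lowest, median and highest of 7), against 603, 732 and 2028 CPM in Core. Its highest Core values were 2028 CPM in 1-11 and 1813 CPM in 15-F, the libraries of lowest background, and no Shell library reached the lowest Core library. The fold change was -1.92 ± 0.27 (SE, adjusted p = 0.00169), and -1.36 without those libraries. Mbp, which holds the membrane layers together, had 342, 407 and 421 CPM in Shell and 709, 1063 and 2588 CPM in Core (-1.77 ± 0.24, adjusted p = 0.00169). The groups did not overlap for Mbp. For both genes the Shell libraries lay close together and the Core libraries spread widely, with an SD of 0.21 log2 CPM in Shell and 0.74 log2 CPM in Core for Mobp.

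Other parts of the oligodendrocyte programme fell by like amounts. Cldn11, the claudin of myelin's tight junctions, had 22.4, 25.2 and 28.9 CPM in Shell and 52.8, 72.7 and 154 CPM in Core (-1.76 ± 0.23, adjusted p = 0.00141). Mag, the adhesion protein between axon and myelin, had 25.6, 28.1 and 37.3 CPM in Shell and 62.5, 82.5 and 190 CPM in Core (-1.73 ± 0.23, adjusted p = 0.0015). Opalin, a membrane protein of mature oligodendrocytes, had 17.6, 21.4 and 25.3 CPM in Shell and 43.3, 52.2 and 134 CPM in Core (-1.75 ± 0.25, adjusted p = 0.0017). Shell and Core did not overlap for these 3 genes. The changes of Ermn (ermin, a cytoskeletal protein of myelinating cells, -1.88 ± 0.24), Mal (a lipid-raft protein of myelin, -1.77 ± 0.23) and Tf (transferrin, the iron carrier made by oligodendrocytes, -1.76 ± 0.24) lay in the same range, each with an adjusted p between 0.00141 and 0.0015. So did those of Ppp1r14a, an inhibitor of myosin phosphatase (-1.64 ± 0.21, adjusted p = 0.00141), and Tmem88b, a membrane protein (-1.72 ± 0.27, adjusted p = 0.00321). Aspa, which breaks down N-acetylaspartate in oligodendrocytes, fell less (-0.66 ± 0.12, adjusted p = 0.00836). Cryab, a small heat shock protein abundant in oligodendrocytes, gave the largest called decrease under the naming rule, with 4.88, 7.83 and 9.10 CPM in Shell and 17.3, 27.7 and 58.1 CPM in Core (-1.97 ± 0.25, adjusted p = 0.00141).

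Oligodendrocyte precursors, the dividing cells that give rise to myelinating cells, gave no called gene in HC_Sal. Among 9 tested members 0 were called, at a median log2 fold change of -0.30, with 8 estimates below 0. At the share over all genes (0.882% lower) a list of 9 would mostly give 0 calls. In the other 5 conditions of the study 7 of the 9 were lower in Shell (median -0.39), against 7.94% of all genes there. With the background level as a covariate 5 were lower in HC_Sal, in a fit that called 1459 of all 28451 genes lower. Gpr17, a receptor of the stage just before myelination, had 12.0, 13.3 and 16.4 CPM in Shell and 14.2, 19.9 and 39.4 CPM in Core, and did not pass (adjusted p = 0.067). Bmp4, a growth factor of newly formed oligodendrocytes, had 3.05, 4.36 and 5.10 CPM in Shell and 5.26, 6.44 and 9.99 CPM in Core. Its groups did not overlap, and it missed the threshold (adjusted p = 0.0581).

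**Figure D1:**
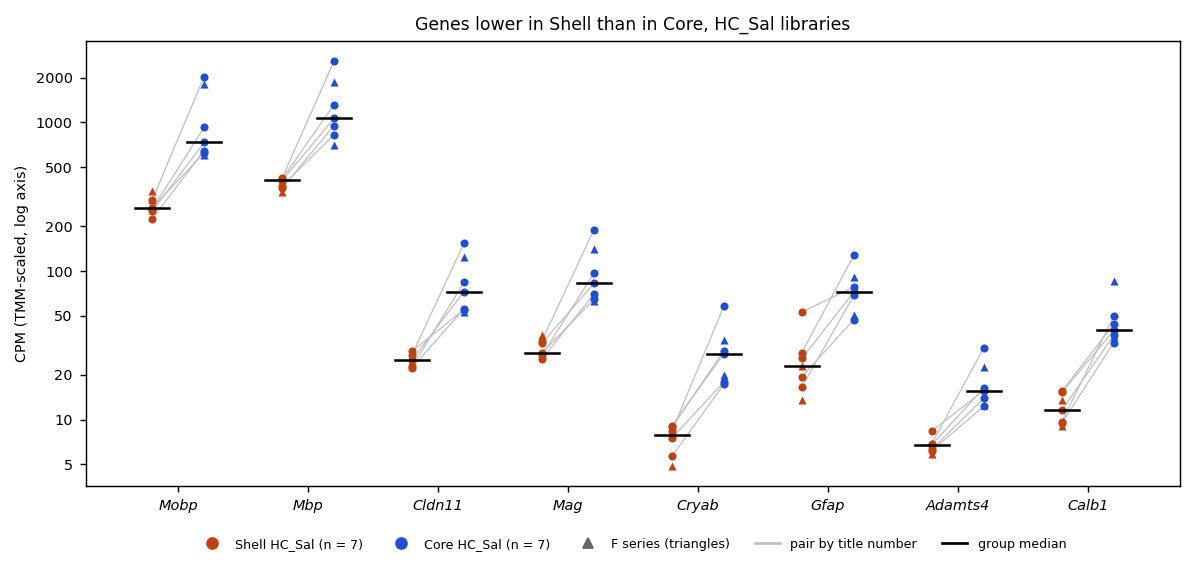
CPM on a log axis of 8 genes lower in Shell than in Core in each of the 14 HC_Sal libraries, with Shell left of Core for each gene, triangles for the F series, grey lines for libraries paired by title number and black bars for medians. The Mobp points run from 224 to 347 CPM in Shell and from 603 to 2028 CPM in Core, and only Gfap has a Shell library inside the Core range.

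Calb1 encodes calbindin, the calcium-binding protein whose staining marks the core. It had 9.07, 11.6 and 15.5 CPM in Shell and 33.0, 39.8 and 85.3 CPM in Core. The groups did not overlap, and Core 15-F stood above the other Core libraries. The fold change was -1.92 ± 0.20 (adjusted p = 0.00129), with paired differences from -2.34 to -1.38 in the 5 numbered pairs. Calb1 was also called without the 3 libraries of highest Neurod6 (-2.15, adjusted p = 0.00806). Penk, which encodes the enkephalin precursor of D2-type neurons and has been reported as denser in the core, had 155, 180 and 214 CPM in Shell and 195, 257 and 548 CPM in Core. The groups overlapped, 4 of 5 pairs were lower in Shell, and the change of -0.59 ± 0.17 did not pass (adjusted p = 0.133).

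Astrocytes, the glia that take up transmitters and support vessels, showed changes in both directions. Of 16 tested members 3 rose and 2 fell, at a median of 0.00 on the log2 scale. Gfap, the intermediate filament of fibrous astrocytes, had 13.5, 23.0 and 53.0 CPM in Shell and 47.1, 72.4 and 128 CPM in Core (-1.60 ± 0.27, adjusted p = 0.00482). All 5 pairs were lower in Shell, and only Shell 3-12 reached into the Core range. Id3, a transcription inhibitor found in fibrous astrocytes and vessels, fell by 0.80 on the log2 scale (SE 0.17, adjusted p = 0.0191, and 0.0931 with the replicate block). Agt, the angiotensin precursor of astrocytes, had 30.1, 42.0 and 54.8 CPM in Shell and 16.5, 19.0 and 30.0 CPM in Core, with no overlap (0.97 ± 0.16, adjusted p = 0.00434). Slc25a18, a mitochondrial glutamate carrier, had 15.4, 17.7 and 20.1 CPM in Shell and 7.93, 9.25 and 11.6 CPM in Core, with no overlap (0.86 ± 0.10, adjusted p = 0.00141). Slc6a11, the GABA transporter of astrocytes, rose by 0.52 ± 0.11 (adjusted p = 0.0169, and 0.101 with the replicate block). The summed level of the list before scaling was 1349 to 1464 CPM in Shell and 1228 to 1669 CPM in Core.

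Microglia gave 0 called genes of 14 tested, with 13 estimates below 0 and a median log2 fold change of -0.18. At the shares over all genes (0.601% higher and 0.882% lower) a list of 14 would mostly give 0 calls. The summed level of the microglia list before scaling was 131 to 153 CPM in Shell and 152 to 169 CPM in Core. Scaled sums were not computed, so these ranges do not show how far the groups overlap on that scale. In the other 5 conditions 7 of the 14 were lower in Shell and 0 higher, against 7.94% lower and 3.07% higher over all genes there. Aif1, a calcium-binding protein of these cells, had 3.19, 4.08 and 4.72 CPM in Shell and 3.72, 4.77 and 7.28 CPM in Core (adjusted p = 0.492). The extracellular matrix list held 2 lower genes of 22. Adamts4, a protease that cuts the lecticans of perineuronal nets and is also made by oligodendrocytes, had 5.90, 6.80 and 8.38 CPM in Shell and 12.3, 15.7 and 30.4 CPM in Core (-1.38 ± 0.19, adjusted p = 0.00169). Hapln2, the link protein of nodes of Ranvier, had 11.6, 16.3 and 17.0 CPM in Shell and 19.2, 30.8 and 68.9 CPM in Core (-1.22 ± 0.21, adjusted p = 0.00552). Neither gene's groups overlapped, and Hapln2 is a member of the myelin list as well.

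Neuropeptides are released beside classical transmitters and act on receptors at a distance. Of 16 tested peptide genes outside the opioids 3 rose (Nts, Nmb and Tac1) and 0 fell. Nts, the precursor of neurotensin, had 13.5, 20.8 and 32.9 CPM in Shell and 6.53, 7.05 and 14.2 CPM in Core (1.48 ± 0.17, adjusted p = 0.00141). Core 15-F stood alone at 14.2 CPM, and the other Core libraries lay below every Shell library. Nts was higher in Shell in all 5 pairs, by 0.96 to 1.97. Nmb, the precursor of neuromedin B, had 5.31, 6.24 and 9.28 CPM in Shell and 2.79, 3.11 and 4.02 CPM in Core, with no overlap (1.07 ± 0.15, adjusted p = 0.0015). Both were called without the 3 libraries of highest Neurod6 (adjusted p = 0.0141 for Nts and 0.0177 for Nmb). Tac1, the substance P precursor of D1-type neurons, had 13.2, 16.9 and 20.6 CPM in Shell and 5.79, 8.81 and 15.6 CPM in Core. All 5 pairs were higher in Shell, the groups overlapped through Core 15-F, and the change was 0.82 ± 0.18 (adjusted p = 0.031, 0.0899 with the replicate block and 0.0925 without Shell 16-F). Cartpt, the precursor of CART peptides, had 38.8, 42.2 and 52.0 CPM in Shell and 18.0, 24.5 and 47.0 CPM in Core and did not pass (0.67 ± 0.17, adjusted p = 0.0704). Cartpt was chosen after its values were seen.

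Peptide receptors followed in small number. Mchr1, the receptor of melanin-concentrating hormone from the hypothalamus, had 10.8, 14.8 and 17.5 CPM in Shell and 4.57, 5.82 and 10.7 CPM in Core (1.05 ± 0.17, adjusted p = 0.00386). The highest Core library, 15-F, lay just below the lowest Shell library. Gpr165, an orphan receptor, had the largest called increase under the naming rule, with 6.33, 9.65 and 15.2 CPM in Shell and 2.02, 2.82 and 6.22 CPM in Core (1.50 ± 0.27, adjusted p = 0.00697). Of the 24 receptors on the fixed list 1 rose: Trhr, the receptor of thyrotropin-releasing hormone, had 8.63, 9.98 and 11.7 CPM in Shell and 3.50, 6.13 and 8.42 CPM in Core (0.71 ± 0.17, adjusted p = 0.0471, 0.0797 with the replicate block and 0.118 without Core 2-12). Among 12 opioid, cannabinoid and nociceptin genes 2 rose and 0 fell. Oprm1, the mu opioid receptor, had 61.4, 66.1 and 74.4 CPM in Shell and 46.9, 51.5 and 53.8 CPM in Core, with no overlap (0.40 ± 0.07, adjusted p = 0.00807, and 0.0685 with the replicate block). Oprl1, the nociceptin receptor, rose by 0.76 ± 0.15 (adjusted p = 0.0149, and 0.0603 with the replicate block). Pdyn, the dynorphin precursor, had medians of 62.2 CPM in Shell and 52.1 CPM in Core and was not called (0.15 ± 0.17).

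Dopamine reaches the accumbens from the midbrain and acts on D1-type, D2-type and, in the shell above all, D3 receptors. Of 10 tested dopamine genes 1 rose and 0 fell (0.601% and 0.882% over all genes). Drd3 had 27.2, 31.0 and 36.1 CPM in Shell and 16.2, 19.8 and 22.3 CPM in Core (0.69 ± 0.10, adjusted p = 0.0017). Shell and Core did not overlap, and the paired differences ran from 0.48 to 0.77. Drd1 had 65.1, 75.7 and 91.8 CPM in Shell and 40.6, 57.6 and 118 CPM in Core (0.26 ± 0.17, adjusted p = 0.993). Drd2 had 103, 128 and 186 CPM in Shell and 94.4, 121 and 201 CPM in Core (0.02 ± 0.15). For both receptors Core 15-F was the highest and Core 7-F the lowest Core library, and the groups overlapped. Of 9 genes of D1-type neurons 2 rose, Tac1 and Sfxn1 (a mitochondrial serine transporter, 0.49 ± 0.11, adjusted p = 0.0384, and 0.159 with the replicate block). Of 8 genes of D2-type neurons 0 were called, and Adora2a, their adenosine receptor, had medians of 55.2 CPM in Shell and 64.6 CPM in Core (-0.21 ± 0.15). Of 15 genes shared by both kinds of neuron 0 were called.

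A list of 7 reported shell markers had 5 that rose (Drd3, Nts, Tac1, Oprm1 and Calb2) and 0 that fell. Calb2, which encodes calretinin, had 12.4, 16.4 and 19.1 CPM in Shell and 10.5, 12.0 and 13.3 CPM in Core (0.47 ± 0.11, adjusted p = 0.0488, and 0.237 with the replicate block). The remaining 2 were not called and had estimates below 0. Crym, a thyroid hormone-binding protein, had 31.0, 37.2 and 46.2 CPM in Shell and 32.9, 55.3 and 89.4 CPM in Core (-0.59 ± 0.17, adjusted p = 0.113). Without Core 1-11 and 15-F it was called lower (adjusted p = 0.0336). Mc4r, a melanocortin receptor, had 1.35, 1.89 and 3.05 CPM in Shell and 1.98, 2.26 and 3.89 CPM in Core (-0.29 ± 0.20).

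**Figure D2:**
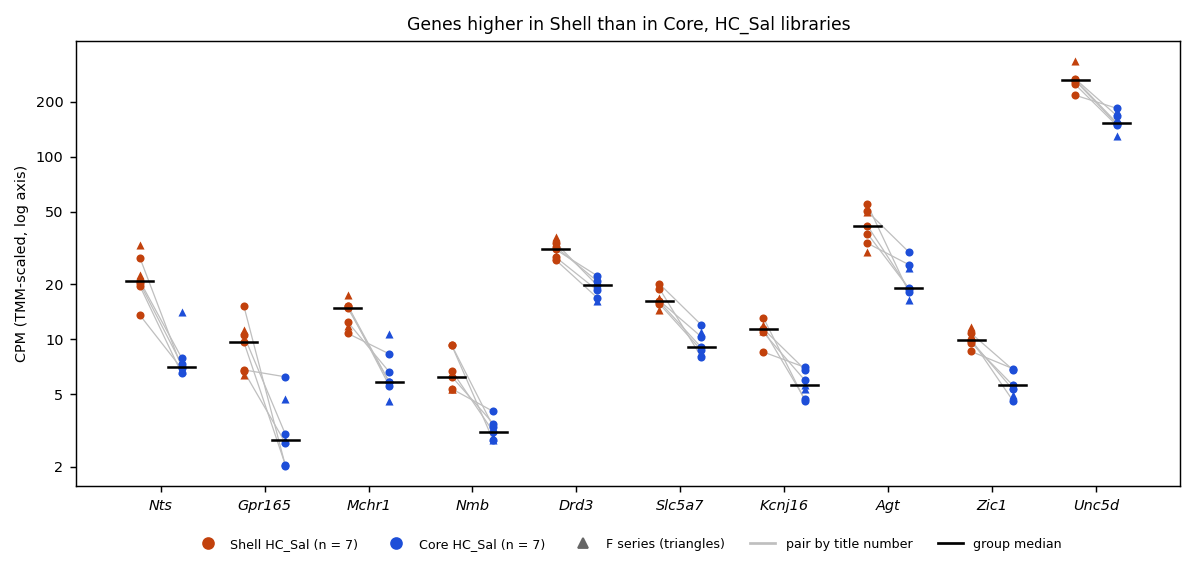
CPM on a log axis of 10 genes higher in Shell than in Core in each of the 14 HC_Sal libraries, with Shell left of Core for each gene, triangles for the F series, grey lines for libraries paired by title number and black bars for medians. For Drd3 the Shell points run from 27.2 to 36.1 CPM and the Core points from 16.2 to 22.3 CPM, while for Nts the single Core point inside the Shell range is 15-F at 14.2 CPM.

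Cholinergic interneurons are few but large cells that supply the striatum with acetylcholine. Of their 8 tested genes 4 rose and 0 fell, at a median log2 fold change of 0.54, and all 8 estimates were above 0. Slc5a7, the choline transporter that feeds acetylcholine synthesis, had 14.4, 16.2 and 20.1 CPM in Shell and 8.03, 9.04 and 12.0 CPM in Core (0.81 ± 0.11, adjusted p = 0.00169). Slc18a3, which loads acetylcholine into vesicles, had 1.28, 1.88 and 2.16 CPM in Shell and 0.58, 0.88 and 1.10 CPM in Core (1.00 ± 0.17, adjusted p = 0.00485). Neither gene's groups overlapped. Gbx2, a transcription factor of these interneurons, had 2.46, 3.60 and 4.90 CPM in Shell and 1.30, 1.80 and 2.50 CPM in Core, and its groups met at the edge (1.03 ± 0.19, adjusted p = 0.00807). Lhx8, another such factor, rose by 0.66 ± 0.14 (adjusted p = 0.0187, and 0.102 with the replicate block). Chat, the enzyme that makes acetylcholine, had 19.5, 21.9 and 25.3 CPM in Shell and 14.1, 19.5 and 21.9 CPM in Core and did not pass (0.24 ± 0.10, adjusted p = 0.576). Of 16 genes of GABAergic interneurons 1 rose, Calb2 (0.601% rose over all genes).

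The shell borders the septum and the ventral pallidum, whose neurons share some of these genes. Of 20 genes listed for those neighbours 5 rose and 0 fell: Zic1, Gbx2, Lhx8, Nefh and Nefm. Gbx2 and Lhx8 stand on the cholinergic list too. Zic1, a patterning factor of the medial forebrain, had 8.57, 9.94 and 11.6 CPM in Shell and 4.61, 5.60 and 6.90 CPM in Core, with no overlap (0.83 ± 0.12, adjusted p = 0.00169). Nefm and Nefh, neurofilaments of large axons, rose by 0.77 ± 0.16 and 0.76 ± 0.17 (adjusted p = 0.0187 and 0.0293, and 0.063 and 0.0884 with the replicate block). The summed level of the list before scaling was 609 to 714 CPM in Shell and 466 to 723 CPM in Core. None of its genes was at 0 in all 14 libraries. For cortical excitatory neurons, also neighbours, 0 of 12 genes were called. Their summed level before scaling was 222 to 317 CPM in Shell and 167 to 299.5 CPM in Core. Slc17a7, their vesicular glutamate transporter, reached 53.3 CPM in Shell 3-11 against a Shell median of 5.40 CPM, also before scaling. The part of neighbouring tissue in these results was not tested.

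Patterning factors set regional identity in development, and 3 of 31 tested rose with 0 lower. Beside Zic1 these were Sox1, a factor of neural progenitors and of some striatal neurons (0.85 ± 0.19, adjusted p = 0.0333, and 0.115 with the replicate block), and Foxp2, a factor of projection neurons. Foxp2 had 276, 319 and 370 CPM in Shell and 202, 229 and 303 CPM in Core, and the groups overlapped (0.42 ± 0.10, adjusted p = 0.0485, 0.186 with the replicate block and 0.152 without Shell 16-F). Retinoid signalling contributed 2 higher genes of 16 (0.601% over all genes). Among them Rxrg, a retinoid X receptor enriched in striatum, rose by 0.48 ± 0.10 with no overlap (adjusted p = 0.0156, and 0.0897 with the replicate block).

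Cadherins and guidance molecules position axons and join cells, and 8 of 43 rose with 1 lower. Unc5d, a netrin receptor, had 217, 265 and 335 CPM in Shell and 129, 154 and 184 CPM in Core (0.74 ± 0.11, adjusted p = 0.00177). Slit2, a repellent ligand of Robo receptors, had 119, 134 and 157 CPM in Shell and 78.9, 92.8 and 95.8 CPM in Core (0.62 ± 0.09, adjusted p = 0.00197). Cdh18, a neuronal cadherin, had 248, 270.3 and 305 CPM in Shell and 148, 186 and 191 CPM in Core (0.62 ± 0.09, adjusted p = 0.00169). Shell and Core did not overlap for any of these 3. Unc5b, another netrin receptor, went the other way, with 30.7, 33.8 and 39.5 CPM in Shell and 46.0, 53.1 and 88.3 CPM in Core and no overlap (-0.76 ± 0.13, adjusted p = 0.00508).

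The 3 lists of channels and fast transmitter receptors, for GABA-A, ionotropic glutamate and potassium channel genes, gave higher genes in HC_Sal and 0 lower. Over all genes 0.601% were higher and 0.882% lower, and at that share lists of this length would mostly give 0 lower. In the other 5 conditions the same lists went both ways, with 4 higher and 2 lower for GABA-A receptors, 4 and 5 for ionotropic glutamate receptors and 9 and 9 for potassium channels. Over all genes in those conditions 3.07% were higher and 7.94% lower. Of 14 GABA-A receptor subunits 4 rose and 0 fell. Gabra3 had 50.9, 56.6 and 59.8 CPM in Shell and 38.2, 40.6 and 45.1 CPM in Core, with no overlap (0.45 ± 0.08, adjusted p = 0.00485). Gabre, the epsilon subunit, had 3.11, 3.41 and 5.07 CPM in Shell and 1.71, 1.92 and 2.66 CPM in Core, with no overlap (0.81 ± 0.15, adjusted p = 0.00902). Gabrb2, a beta subunit, rose by 0.45 ± 0.11 (adjusted p = 0.0467, and 0.194 with the replicate block). Of 17 ionotropic glutamate receptor genes 2 rose. Grin3a, an NMDA receptor subunit that lowers calcium entry, had 68.1, 75.4 and 83.2 CPM in Shell and 54.8, 56.7 and 64.6 CPM in Core (0.39 ± 0.08, adjusted p = 0.0158, and 0.109 with the replicate block). Grik1, a kainate receptor subunit, had 92.3, 103 and 113 CPM in Shell and 45.3, 74.6 and 86.5 CPM in Core (0.54 ± 0.12, adjusted p = 0.0299, and 0.0934 with the replicate block). Neither gene's groups overlapped.

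Potassium channels set resting potential and firing rate, and 4 of 33 rose with 0 lower. Kcnj16, an inward rectifier also found in astrocytes, had 8.50, 11.3 and 13.1 CPM in Shell and 4.61, 5.63 and 7.01 CPM in Core (0.97 ± 0.13, adjusted p = 0.00141). Kcnk9, a leak channel, had 25.6, 30.6 and 39.6 CPM in Shell and 15.0, 17.9 and 22.3 CPM in Core (0.76 ± 0.11, adjusted p = 0.0017). Neither gene's groups overlapped. Kcnc2, a channel of fast-spiking cells, rose by 0.70 ± 0.12 (adjusted p = 0.00442), and Kcnj3, a channel opened by G proteins, rose by 0.55 ± 0.11 (adjusted p = 0.0147, and 0.071 with the replicate block). Of 17 genes of calcium-binding proteins 2 rose and 1 fell, the rises being Calb2 and Necab1, a neuronal calcium-binding protein (0.51 ± 0.10, adjusted p = 0.0139, and 0.0648 with the replicate block).

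The remaining genes with the largest increases had varied roles. Itih3, a hyaluronan-binding protein, had 98.9, 122 and 171 CPM in Shell and 35.6, 50.8 and 96.6 CPM in Core, with no overlap (1.18 ± 0.21, adjusted p = 0.00605). Sertm2, a small membrane protein, had 2.07, 3.05 and 4.31 CPM in Shell and 0.79, 1.54 and 1.84 CPM in Core, with no overlap (1.13 ± 0.19, adjusted p = 0.00482). Irs4, an adaptor of insulin receptor signalling, rose by 1.08 ± 0.26 (adjusted p = 0.0499, and 0.173 with the replicate block). Baiap3, a regulator of dense-core vesicle release, rose by 0.92 ± 0.22 (adjusted p = 0.0421, and 0.0685 with the replicate block). Nap1l5, an imprinted nucleosome assembly protein, rose by 0.91 ± 0.22 (adjusted p = 0.0493, and 0.14 with the replicate block). The groups overlapped for these last 3 genes.

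Several groups gave 0 called genes: serotonin receptors (12 tested), acetylcholine receptors (14), metabotropic glutamate receptors (7), immediate early genes (25), the glucocorticoid response (16), cytosolic ribosomal proteins (73), the mitochondrial genome (13), choroid plexus and ependyma (12), blood (7), vessel endothelium (11) and vessel mural cells and fibroblasts (13). Over all genes tested 0.601% were called higher and 0.882% lower, and at those shares lists this short would mostly give 0 calls. These zeros are therefore not a result about the groups. Ribosomal protein genes nonetheless had estimates below 0 in 73 of 73 cases, at a median log2 fold change of -0.25, and that median was 0.09 without Core 1-11 and 15-F. Core 15-F had the highest summed ribosomal level, 4564 CPM before scaling.

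**Figure D3:**
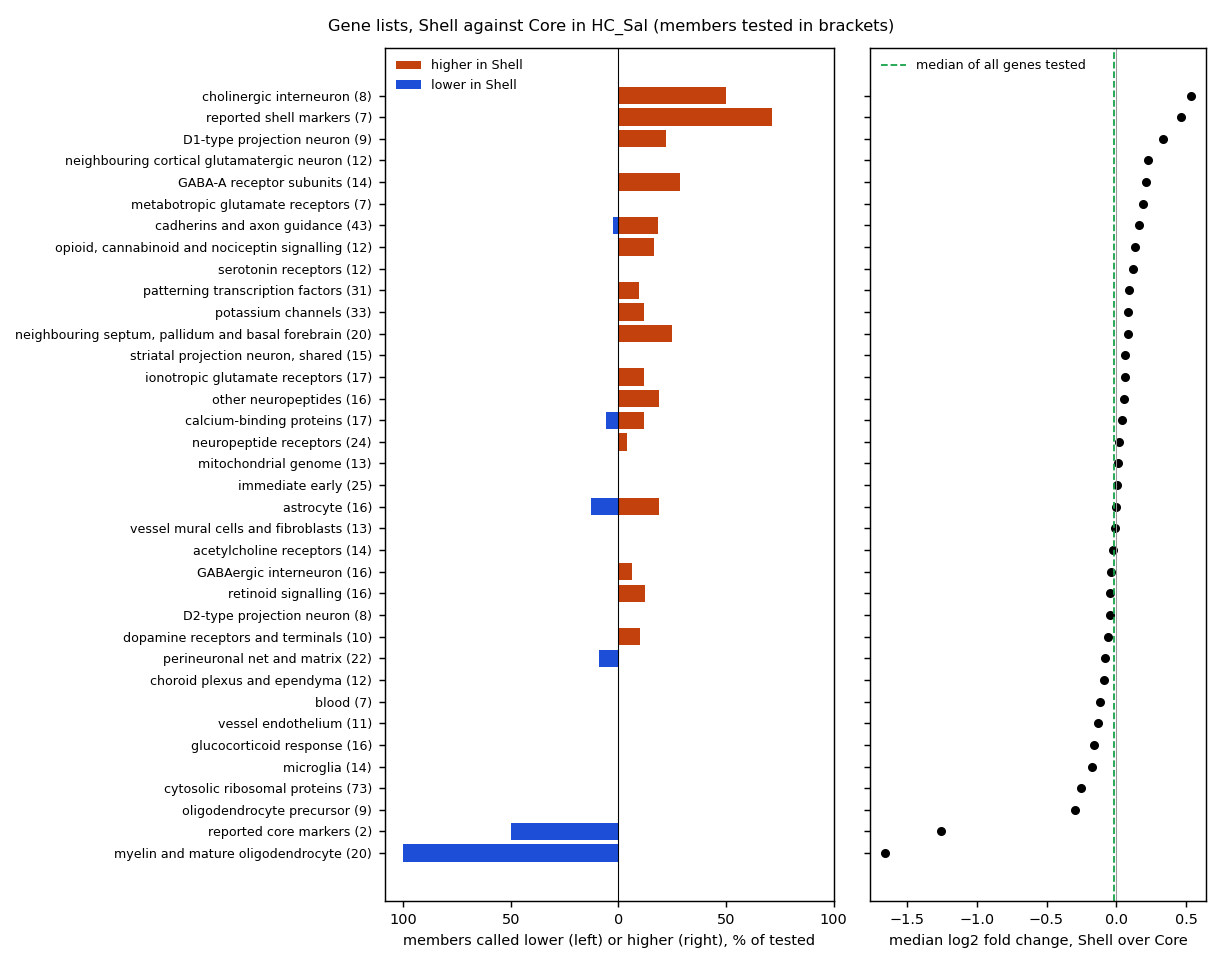
Gene lists in the HC_Sal comparison, with the percent of tested members called lower (left, blue) or higher (right, orange) in Shell, and beside it the median log2 fold change of Shell over Core, where the dashed line is the median of all genes tested. The myelin list reaches 100% lower at a median of -1.66, and the cholinergic list reaches 50% higher at a median of 0.54.

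The same contrast was then taken in the 70 libraries of the other 5 conditions, none of which entered the HC_Sal fit. Higher in Shell were 986 genes (3.07% of 32080 tested), and 2548 were lower (7.94%). Of the 171 genes higher in HC_Sal 154 were higher there too (90.1% of the HC_Sal calls and 15.6% of the others), and of the 251 lower genes 248 were (98.8% and 9.73%). No gene was called in opposite directions, and all 422 had the same sign. In these 5 conditions too, Shell and Core libraries outside the F series carry different series numbers. The agreement in calls and signs therefore cannot tell the subregion from the series number. Mobp gave -1.99, Calb1 -1.77, Nts 0.99, Nmb 1.11, Drd3 0.65 and Slc25a18 0.93 on the log2 scale, all called. Among the genes named above, those that passed in HC_Sal and not in the other conditions were Tac1 (0.38, adjusted p = 0.116), Foxp2 (0.16, 0.159), Gabrb2 (0.15, 0.251), Nefh (0.33, 0.202) and Nefm (0.27, 0.299). Penk, Crym and Mc4r, which did not pass in HC_Sal, were lower in Shell there (-1.02, -0.58 and -0.65, adjusted p = 3.98e-05, 0.00327 and 0.000171), and Chat was higher (0.28, adjusted p = 0.0166).

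Tested condition by condition, with 7 Shell and 7 Core libraries each, the numbers of called genes varied widely. HC_Sal gave 171 higher and 251 lower genes, HC_Coc 58 and 169, Ext_Sal 0 and 2, Ext_Coc 29 and 325, Ctx_Sal 7 and 95, and Ctx_Coc 0 and 0. Background was 12.1 log2 CPM in Core Ctx_Coc 17-F and 11.2 in Shell Ext_Sal 12-F, against at most 10.5 in HC_Sal. Without 17-F the 5 conditions together gave 3984 higher and 4409 lower genes. Ctx_Coc alone was not refitted without it, so its 0 and 0 do not show that the subregions are alike there. At an unadjusted p below 0.05 the counts were 2168 in HC_Sal, 1446 in HC_Coc, 1917 in Ext_Sal, 6152 in Ext_Coc, 1620 in Ctx_Sal and 552 in Ctx_Coc. Depending on the condition, 5% of the genes tested would be 1413 (Ctx_Sal) to 1487 (Ctx_Coc). HC_Coc lay near its own 5%, which is 1430, and Ctx_Coc far below. Estimates by condition are given here for Nts, Mobp and Tac1, and their closeness over all genes was not measured. Nts was higher in Shell by 1.48 in HC_Sal and by 0.76 to 1.11 in the other 5 conditions, and Mobp was lower by -1.92 in HC_Sal and between -2.26 and -1.59 elsewhere. Tac1 gave 0.82 in HC_Sal and 0.17 to 0.67 elsewhere.

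**Figure D4:**
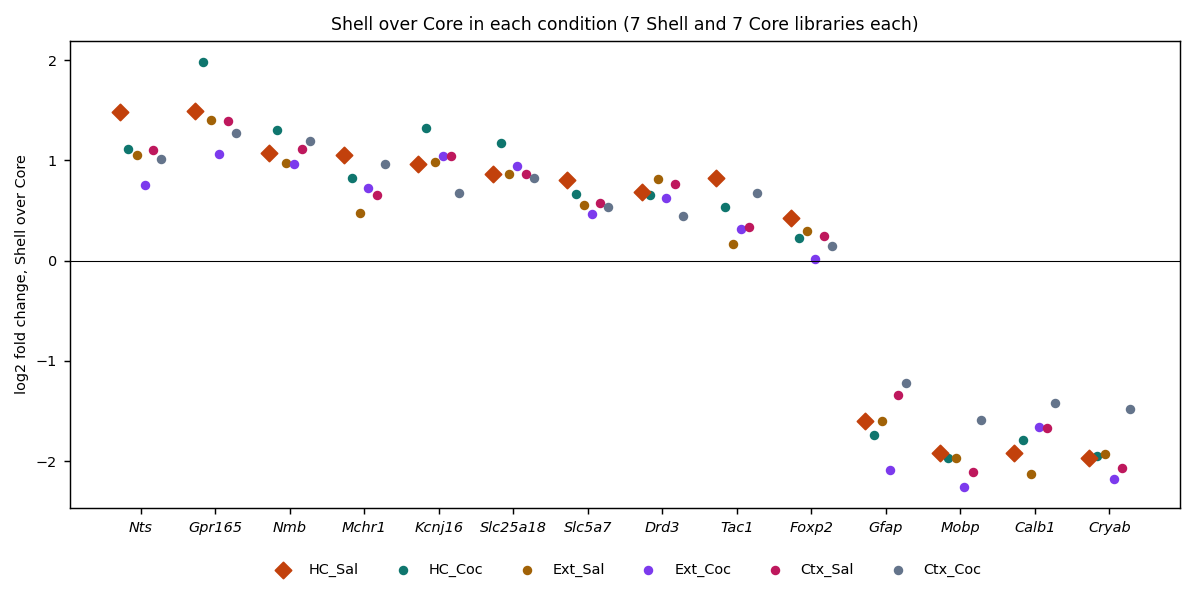
Log2 fold change of Shell over Core for 14 genes in each of 6 conditions (7 Shell and 7 Core libraries each), with diamonds for HC_Sal and circles for the others. All 14 genes keep 1 direction in the 6 conditions, with Foxp2 in Ext_Coc nearest to 0 at 0.01.

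Whether the subregion difference in HC_Sal departed from that elsewhere was tested as a difference of differences over all 84 libraries. Against HC_Coc, which asks whether the subregion difference depends on the drug in this setting, 0 of 32145 genes passed (0.0%) by edgeR, with 99 at an unadjusted p below 0.05. That is far fewer than 5% of the genes, which would be 1607, so this 0 does not show that the differences are alike. DESeq2 called 2, Trnl2 and LOC120100333, both with a lower Shell-Core difference in HC_Sal. Trnl2, a mitochondrial transfer RNA, gave -3.27 ± 0.68 (edgeR adjusted p = 0.249, DESeq2 adjusted p = 0.00542). Before scaling, its median was 3.66 CPM in Shell HC_Sal, 4.04 in Core HC_Sal, 4.58 in Shell HC_Coc and 4.25 in Core HC_Coc. Shell HC_Coc 14-F alone reached 223 CPM. LOC120100333 was at 0 in the median library of all 4 groups, with 21.7 CPM before scaling in Core HC_Sal 7-F. Its estimate rests on such single libraries. Leaving aside genes with only an identifier such as LOC, the next lowest p-values were those of Trnd (-3.26 ± 0.71), Trnp (-2.09 ± 0.52), Igbp1 (-2.56 ± 0.83) and Calm-ps2 (2.25 ± 0.82). These 4 did not pass.

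Against the mean of the other 5 conditions 0 of 32145 genes passed (0.0%) by edgeR and 0 by DESeq2, with 126 and 153 at an unadjusted p below 0.05, again well under 5% of the genes. Leaving aside genes with only an identifier such as LOC, the lowest p-values belonged to Hmg1l1 (-1.15 ± 0.40), Il20ra (0.29 ± 0.11), Rad9b (0.24 ± 0.09), Epb41 (0.27 ± 0.10) and Trnl2 (-1.35 ± 0.52). None passed, at an adjusted p of 0.93. For the genes that led the comparison the differences of differences were 0.48 ± 0.36 for Nts, 0.43 ± 0.37 for Tac1, 0.06 ± 0.40 for Mobp, -0.18 ± 0.38 for Calb1 and 0.03 ± 0.14 for Drd3, none of them called.

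The libraries of lowest background stood out for some of the genes. Mobp was highest in Core 1-11 and 15-F, which had the lowest background, and among the other 5 Core libraries it ran from 603 to 926 CPM, still above every Shell library. Penk was highest in Core 15-F at 548 CPM. With the background level added as a covariate, 2728 genes were higher and 1459 lower in Shell. All 422 calls above were among them, in a fit of the same libraries. The part of background in these levels was not tested.

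**Figure D5:**
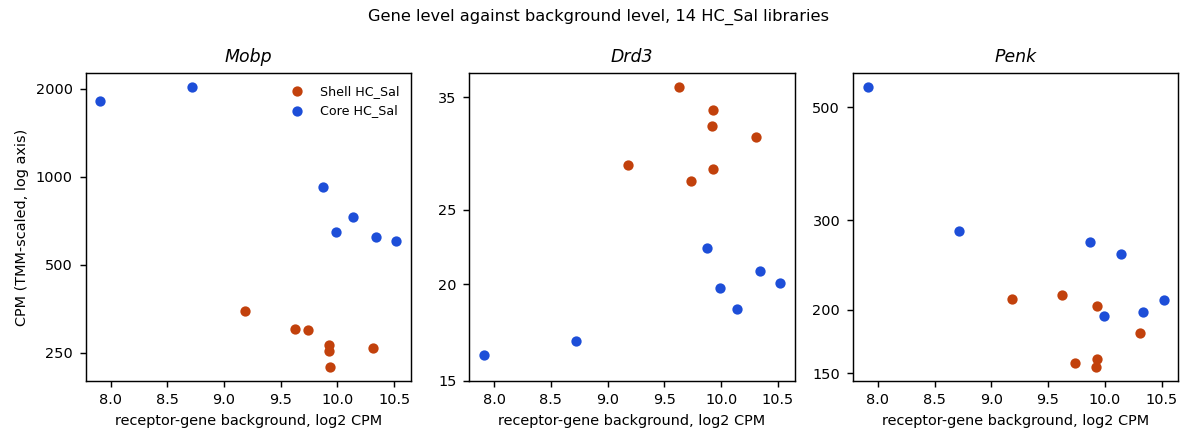
CPM on a log axis of Mobp, Drd3 and Penk against the background level (log2 CPM of the summed smell and pheromone receptor genes) in the 14 HC_Sal libraries, Shell in orange and Core in blue. The Core libraries at 7.91 and 8.72 have the highest Mobp and the lowest Drd3, and Core 15-F has the highest Penk.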

How the data were processed

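Per the labels' protocols, Shell and Core RNA (total RNA) was purified with Direct-zol columns, and a low-input stranded kit for total RNA (SMARTer v3 Pico) made the libraries. The authors deposited raw counts per gene, which the submitters' processing notes tie to featureCounts and mRatBN7.2. The strand setting, aligner and annotation were not given in the sources used here, so overlapping or antisense genes, and near-identical copies, cannot be told apart. The deposited FPKM values served only to obtain gene lengths: they and the counts imply 1 length per gene for 100% of 27700 genes (within 1%), and those lengths can span introns.

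Groups and replicate names came from the titles. The members and gene lists were chosen with earlier results of these data known. Genes passing filterByExpr had TMM scaling and were tested with edgeR 4.0.16 (R 4.3.3, limma 3.58.1), two-sided quasi-likelihood F test, with F series against numbered series as covariate and Benjamini-Hochberg adjustment over all genes kept, at a threshold of 0.05. HC_Sal used its 14 libraries, the other conditions their 70, and the differences of differences all 84. Levels by library used a prior count of 2. The background test used an exact permutation (scipy). Background sums covered 2033 receptor genes. Alternatives were DESeq2 1.42.0 (Wald test and size factors), no filter, no covariate, all 84 libraries, either series alone, a replicate block, the background covariate and leaving out each library, and, added after the data had been seen, leaving out the libraries of lowest background or highest Neurod6.

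Genes named are the 12 largest called increases and decreases with log2 CPM averaging at least 1 and a true symbol. Also named are up to 3 members of lowest p per list and a fixed set of region markers. From each difference of differences the 5 lowest p-values among genes with a true symbol were taken. Some genes that met this rule are not reported here. Cartpt, Chat, Crym, Mc4r and LOC120100333 were added after their values were seen.

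Titles pair 3-k with 1-k and 4-k with 2-k. The pairing rests on these numbers; the labels do not say that a number marks a rat or a batch, and the check on the data was not decisive. It correlated deviations from group means over the 30 such pairs in the series, in 18 settings (0 to 8 components removed, 200, 2000 or 25903 genes). Same-numbered pairs had a higher median than other pairings in all 18 (0.0971 to 0.399), but every pair exceeded 0.1 in only 2 of the 18, and the lowest pair ran from -0.534 to 0.111. For the 5 HC_Sal pairs alone every pair exceeded 0.1 in 11 of 18. Of 60 libraries 13 to 50 correlated best with their own number. Values with the replicate block are therefore given as a second fit, and a call lost under it is not a weaker effect. The F libraries formed 1 further block per condition. Of 41919 genes 29367 matched RefSeq symbols. No 2 libraries were identical (0 pairs, highest correlation 0.996).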

Additional observations from a re-analysis of the deposited data

Results flagged for a closer look

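In 7 of 148 gene and group combinations examined, 1 of 7 libraries stood apart from the other 6 by its gap. Chance gives about 1 in 20 for independent combinations. These genes share the same 14 libraries and many were chosen for their changes, so the number of flags cannot be judged against that rate. Levels are log2 CPM. Core 15-F was high for Calb1 (6.42, the other Core libraries 5.05 to 5.63), Nts (3.84, others 2.73 to 3.01), Penk (9.10, others 7.61 to 8.16) and Oprl1 (3.29, others 2.43 to 2.73). That library also had the lowest background level (7.91) and the highest depth (22.5 M counts) of the 14, and the part of these in the 4 values was not tested. Core 7-F was low for Slc18a3 (-0.50, others -0.05 to 0.29). Shell 16-F was low for Hapln2 (3.55, others 3.96 to 4.10). Shell 3-12 was low for Kcnj16 (3.11, others 3.46 to 3.73).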

How the results depend on the processing

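The 171 higher genes of HC_Sal became 105 in the fit of all 84 libraries. The 171 higher and 251 lower genes became 67 and 156 with the replicate block, and 2728 and 1459 with the background covariate. They became 3175 and 2576 without the 2 Core libraries of lowest background, and 5 and 2 without the 3 libraries of highest Neurod6. The F series alone (2 libraries a group) gave 0 and 0. It had 106 genes at an unadjusted p below 0.05, where 5% of the genes tested would be 1437. Leaving out 1 library at a time gave 87 to 384 higher and 149 to 467 lower genes. The totals were 236 without Shell 8-F, 259 without Shell 4-11 or 16-F, 266 without Shell 4-12, 279 without Shell 3-11, 679 without Core 15-F and 685 without Core 7-F, each over 1.5 times from 422. In the settings other than single omissions all 422 had the same sign, but each of those fits reuses HC_Sal libraries that selected them. With the block 223 of the 422 were called. DESeq2's Wald test gave 247 and 339. For the other 5 conditions the counts were 3984 higher and 4409 lower without Core Ctx_Coc 17-F, and 8414 higher with the background covariate. The causes were not tested.

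Of the 61 named genes called in HC_Sal, 40 were called whichever library was left out, 38 with the block, 33 over all 84 libraries and 4 without the 3 libraries of highest Neurod6 (Nts, Nmb, Calb1 and Slc25a18). The 21 named calls that ended without some library were Trhr (adjusted p up to 0.118, without Core 2-12), Olig1, Tac1, Sox1 and Foxp2 (up to 0.0569, 0.0925, 0.0993 and 0.152, without Shell 16-F), Grik1 (0.0794, without Shell 4-11), Grin3a (0.0533, without Shell 4-12), and, without Shell 8-F, Oprl1, Necab1, Nefm, Slc6a11, Rxrg, Lhx8, Id3, Nefh, Sfxn1, Baiap3, Calb2, Gabrb2, Nap1l5 and Irs4 (0.0509 to 0.191). Drd2, at 0.02, turned to -0.10 in the numbered series alone and ranged from -0.11 (without Core 7-F) to 0.13 (without Core 1-11) when 1 library was left out. Pdyn turned to -0.048 in the F series alone. DESeq2 called 2 genes in the difference from HC_Coc. Depth limits genes near 1 CPM, such as Slc18a3.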
